A study of Mus musculus with 16 samples.

Results

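A set of 10 genes that low oxygen is known to induce in many cell types, or that carry the response, was followed through enteroids that lack functional myosin Vb (MYO5B). They were taken by symbol from the count table, and all 10 were found among its 54532 genes: Hif1a, Egln3, Vegfa, Adm, Bnip3, Higd1a, P4ha1, P4ha2, Ndrg1 and Ankrd37. The rule used the symbols and no measured value. Every one of them passed the filter on low counts in all 5 comparisons, with at least 114 reads in every culture (Adm in a Compound-1-treated culture).

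RNA was sequenced from 16 cultures of mouse jejunal enteroids, which are epithelial cultures grown from crypts, in 4 groups of 4 cultures from different mice, harvested after differentiation. MYO5BΔIEC cultures were Vil-CreERT2;Myo5b-flox/flox, MYO5B(G519R) cultures were Vil-CreERT2;Myo5b-flox/G519R, with the G519R point mutation on the allele that Cre does not remove, and in both the records name 1 µM 4-OH-tamoxifen for 24 h before the differentiation medium. The Vil1 promoter confines the recombinase to epithelium, so deletion was induced in culture and in epithelial cells alone. A further group of MYO5BΔIEC cultures received 100 nM Compound-1, a synthetic agonist of the lysophosphatidic acid receptor LPAR5, for 2 days in that medium. The other MYO5BΔIEC cultures received the vehicle, PBS, for 2 days instead and are called untreated below. The sample titles name a vehicle for no other group, so MYO5BΔIEC may differ from MYO5B(G519R) and control in this as well. Controls are recorded only as control genotype with no treatment, although the methods describe flox/flox cultures given ethanol and a legend describes healthy littermates. If no control received 4-OH-tamoxifen, what the drug did and what loss of MYO5B did cannot be told apart. The crypts came from adult mice of the Cre strains, with no closer age given in the sources used here.

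Cells sense oxygen through prolyl hydroxylases of the EGLN family, which mark hypoxia-inducible factor (HIF) alpha subunits for destruction by the VHL ubiquitin ligase while oxygen is present. When oxygen falls, the alpha subunit is spared, pairs with ARNT and switches on genes for glycolysis, vessel growth, collagen modification and the removal or protection of mitochondria. HIF-1α is governed mostly at the protein level, and many of its targets, EGLN3 among them, are read as a record of its activity. Intestinal epithelium is known for its steep oxygen gradient, whereas enteroids grow in medium under incubator air. Protein and oxygen were not measured in these files.

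Between 27804968 and 40101729 reads were counted per culture, and levels are given as CPM, counts relative to library size scaled by edgeR's TMM method. Control culture 1 stood apart: its log2 CPM correlated with those of the other controls at r = 0.928 to 0.937 over 13545 genes, against 0.981 to 0.990 among the other controls. The 6 enterocyte markers summed to 2352 CPM in it and to 10890 to 13930 CPM in control cultures 2 to 4. Compound-1-treated culture 3 had the lowest sum of 6 proliferation markers (722 CPM, against 1073 to 1937 CPM in the other 15 cultures). Many results that rest on either are given with and without it. Epithelial markers were abundant in every culture (sum of 6 markers 4745 to 10910 CPM), whereas fibroblast markers summed to at most 0.956 CPM, endothelial to at most 2.09 CPM and immune cell markers to 3.86 to 11.2 CPM, and Dcn, Lum, Col3a1 and Adgre1 were at 0 in all 16. Xist marked 6 cultures (at least 29967 counts, against at most 31 in the other 10) and was unevenly spread over the groups. Myo5b itself had a log2 fold change against control of -0.55 in MYO5BΔIEC (edgeR adjusted p = 0.0503) and -0.33 in MYO5B(G519R) (edgeR adjusted p = 0.109).

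The hypoxia-inducible genes as a group showed few differences between genotypes beyond the spread between cultures. In MYO5BΔIEC against control, 1 of the 10 passed the test, Higd1a, which fell, while 27.4% of the 17951 genes tested passed it in either direction and 13.8% fell. In MYO5B(G519R) against control none passed, where 26.8% of 17829 genes did, and 1 member, Bnip3, had an unadjusted p under 0.05, where 39.4% of genes did. DESeq2 also called 1 member in the first comparison, Higd1a, and none in the second, where it called 33.3% and 34.6% of all genes. The median log2 fold change of the 10 genes was 0.25 and -0.08, beside -0.01 and -0.05 over all genes tested. In bulk RNA such as this, fewer cells of a type and less RNA per cell cannot be told apart.

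Leaving out control culture 1, which was singled out after seeing the data, changed these counts. Without it, 4 members passed in MYO5BΔIEC against control, where P4ha1, P4ha2 and Ndrg1 rose and Higd1a fell, beside 42.0% of 17783 genes. In MYO5B(G519R) against control, P4ha1 and P4ha2 rose and Higd1a fell, 3 of the 10, beside 46.2% of 17647 genes. With 10 genes, 4 that passed is close to the share over all genes. Control culture 1 was the highest control for P4ha1, P4ha2 and Ndrg1 and the lowest for Higd1a. Leaving it out therefore moves their fold changes in these same directions, and these fits are no added support for a rise or a fall.

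Compound-1 treatment of MYO5BΔIEC enteroids moved no member past the threshold, and no gene at all passed edgeR's test among 18037 (0%), while DESeq2 called 91 of 16972 genes (0.536%) and none of the members. At an unadjusted p under 0.05 stood 1 member, P4ha1, and 7.51% of all genes. The fold changes of 9 of the 10 lay below 0, with Hif1a the exception, and the median log2 fold change of the 10 was -0.54 beside 0.00 over all genes tested. The genes share the same 8 libraries, so the 9 are not separate observations. With Xist level as a covariate, chosen after seeing the data, all 10 kept their sign but were smaller. Adm was then -0.49, Egln3 -0.245 and Ankrd37 -0.24. With treated culture 3 left out, the same 9 remained below 0, the median was -0.36, and again none passed, as for 0% of 17682 genes.

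Against control, the Compound-1-treated cultures had 2 members lower, Bnip3 and Higd1a, and none higher, where 29.4% of 17937 genes passed in either direction and 13.7% fell, and DESeq2 called both members and 35.1% of all genes. Without control culture 1, P4ha2 rose and Higd1a fell, while Bnip3 did not pass, beside 42.1% of 17718 genes. Without treated culture 3, Bnip3 alone passed, beside 18.9% of 17512 genes. Bnip3 was the only member whose groups did not overlap in any comparison of all 8 cultures, with all treated cultures below all controls, as for 13.6% of genes. Between MYO5B(G519R) and MYO5BΔIEC no member passed edgeR's test or DESeq2's, which 0.00557% of 17943 genes and 0.0223% of genes passed, and none had an unadjusted p under 0.05, as 4.3% of genes did. The comparisons with control share its 4 cultures, and those with MYO5BΔIEC share that group, so their values are not independent of each other.

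**Figure D1:**
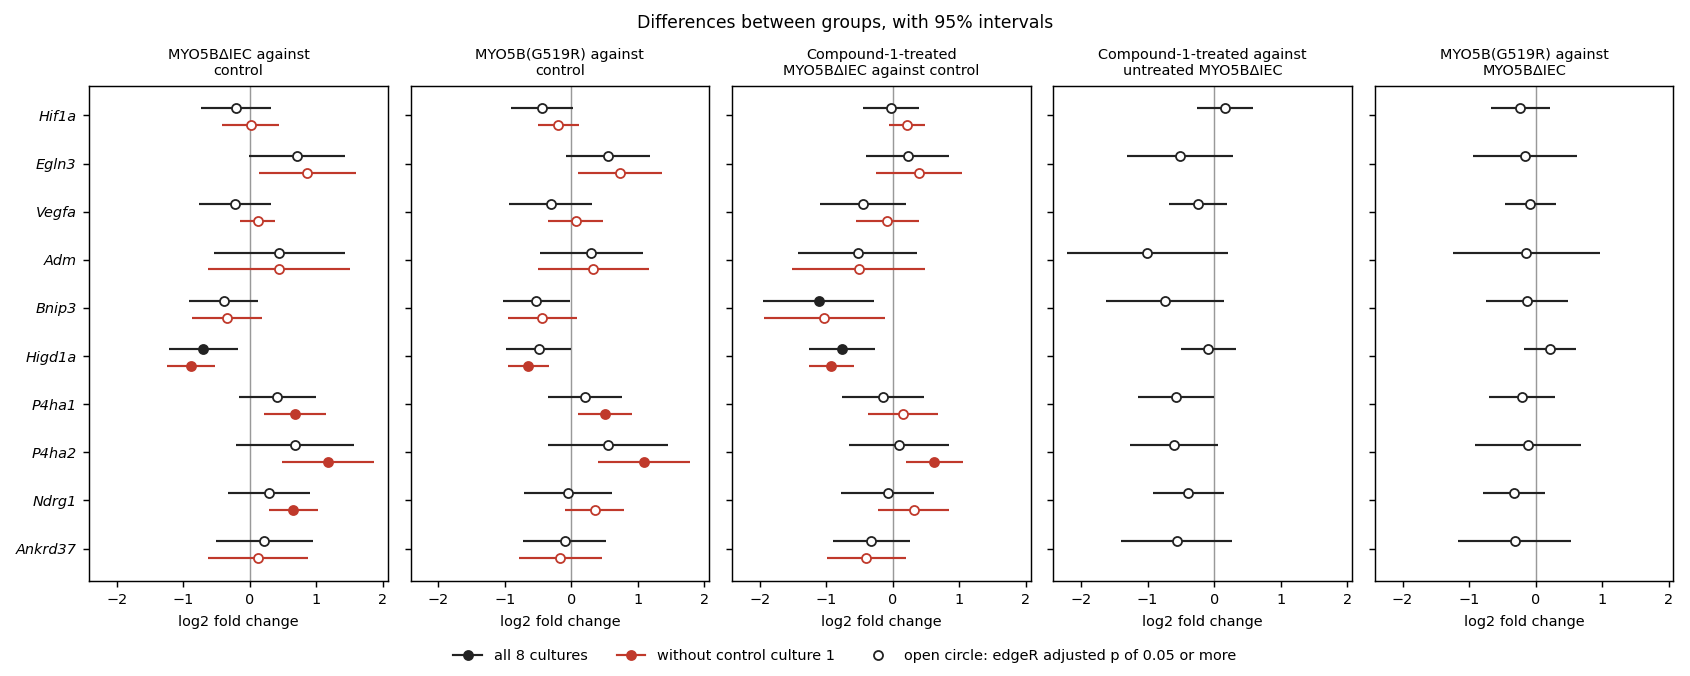
Log2 fold change of each hypoxia-inducible gene (x axis) in the 5 comparisons, with 95% intervals. Black marks use all 8 cultures and red marks leave out control culture 1, and filled circles passed edgeR's test. The filled black circles are Higd1a in MYO5BΔIEC and Higd1a and Bnip3 in treated MYO5BΔIEC, each against control.

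Hif1a encodes HIF-1α, the oxygen-labile subunit (chromosome 12, 73901375 to 73947530, GRCm38). Its level was 129, 79.2, 80.4 and 72.1 CPM in control cultures 1 to 4 and 76.6, 53.2, 71.3 and 109 CPM in MYO5BΔIEC cultures 1 to 4. In MYO5B(G519R) it was 55.9, 58.9, 62.8 and 87.0 CPM, and in treated MYO5BΔIEC 96.8, 95.1, 83.7 and 78.4 CPM. Control culture 1 was the highest of all 16, and the groups overlapped throughout. The log2 fold change against control was -0.21 (95% interval -0.74 to 0.32, edgeR adjusted p = 0.553) in MYO5BΔIEC and -0.45 (95% interval -0.91 to 0.02, edgeR adjusted p = 0.141) in MYO5B(G519R). Without control culture 1 these were 0.01 (95% interval -0.42 to 0.44, edgeR adjusted p = 0.974) and -0.19 (95% interval -0.50 to 0.12, edgeR adjusted p = 0.287), so the first turned sign. Compound-1 treatment gave 0.16 (95% interval -0.26 to 0.58) against untreated MYO5BΔIEC. Hif1a had the smallest spread of the 10 genes between cultures of a group, and no difference between groups in it passed the test.

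Egln3 encodes the prolyl hydroxylase PHD3, which is both a sensor and a HIF target (chromosome 12, 54178981 to 54203860). Controls held 352, 254, 278 and 197 CPM, and MYO5BΔIEC cultures 1 to 4 held 389.8, 524, 654 and 192 CPM. MYO5B(G519R) cultures stood at 481, 465, 441 and 191 CPM and treated ones at 475, 238, 193 and 357 CPM. Cultures 1 to 3 of both mutant groups lay above every control, and culture 4 of each lay below all 4 controls. The log2 fold change was 0.71 (95% interval -0.01 to 1.43, edgeR adjusted p = 0.127) in MYO5BΔIEC and 0.55 (95% interval -0.09 to 1.18, edgeR adjusted p = 0.183) in MYO5B(G519R). With culture 4 of MYO5BΔIEC left out it passed there (0.96, edgeR adjusted p = 0.0166), as it did in MYO5B(G519R) with culture 4 of that group left out (0.77, edgeR adjusted p = 0.0211). In the latter fit 4426 of 17680 genes passed. Culture 4 was the lowest of its group for Egln3 in both, so leaving it out could only raise the fold change. These fits are therefore no support for a rise. Treatment gave -0.52 (95% interval -1.31 to 0.28).

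Vegfa, the growth factor of vessel sprouting, and Adm, the vasodilator peptide adrenomedullin, are secreted ligands (chromosome 17, 46016993 to 46032369, and chromosome 7, 110627661 to 110629820). Vegfa stood at 379.7, 184, 194 and 169 CPM in controls and 220.4, 198, 195 and 174 CPM in MYO5BΔIEC. It was 236, 218, 161 and 132 CPM in MYO5B(G519R) and 192, 203, 104 and 178 CPM in treated enteroids. Control culture 1 was the highest of the 16 cultures, and the other 3 controls, at 169 to 194 CPM, overlapped every other group. Vegfa's log2 fold change in MYO5BΔIEC was -0.23 (95% interval -0.77 to 0.31) with that culture and 0.12 (95% interval -0.15 to 0.38) without it. The direction therefore turned on 1 culture, and neither value passed.

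Adm was the least expressed member but one per length, and the most variable. Controls were at 11.1, 8.78, 15.1 and 9.49 CPM and MYO5BΔIEC at 10.6, 22.8, 22.9 and 3.93 CPM. MYO5B(G519R) was at 20.3, 17.8, 11.0 and 5.73 CPM and treated MYO5BΔIEC at 14.2, 3.57, 4.15 and 8.93 CPM. In each mutant group the control range lay inside the spread of its 4 cultures. The treated against untreated log2 fold change was -1.01 (95% interval -2.21 to 0.20), the widest interval among the members in that comparison.

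Receptors for these ligands were scarce. Of 14 listed ligands, receptors and accessory proteins of VEGF and adrenomedullin, 10 passed the filter on low counts, and 1 rose in MYO5BΔIEC, the co-receptor Nrp2 (log2 fold change 0.82, edgeR adjusted p = 0.0473, SE 0.28), with none in MYO5B(G519R), beside 27.4% and 26.8% of all genes. In MYO5BΔIEC 3 of the 10 passed without control culture 1, and 0 with any other single culture left out. The VEGF receptor genes Kdr and Flt1 did not pass the filter, at group means of at most 0.00750 CPM and 0.147 CPM, near or under the 0.0737 to 0.111 CPM that a count of 0 allows. Calcrl, the adrenomedullin receptor, averaged 0.833 ± 0.993 CPM in controls, with 2.32 CPM in culture 1, and 0.420 ± 0.0779 CPM in MYO5BΔIEC (SD, n = 4). Counting error alone is covered by such floors.

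Bnip3 and Higd1a act at mitochondria: BNIP3 marks the outer membrane for mitophagy, and HIGD1A stabilizes respiratory chain complexes. They were the only members called lower with all cultures. P4ha2 was the only one that passed as higher against control in all 3 comparisons without control culture 1. That culture was the highest control for P4ha2, so leaving it out could only raise these fold changes, and the fits are no support for a rise. The promoter windows of Bnip3, Higd1a and P4ha2 are shown, from RefSeq on GRCm38.p6. They run from 250 bases before to 50 after the start, read 5′ to 3′ on the gene's strand. Capitals mark the core letters of a hypoxia response element, ACGTG or GCGTG on that strand and CACGT or CACGC for the other strand. Because CACGTG matches on both, overlapping matches were merged to 1 stretch.
Bnip3: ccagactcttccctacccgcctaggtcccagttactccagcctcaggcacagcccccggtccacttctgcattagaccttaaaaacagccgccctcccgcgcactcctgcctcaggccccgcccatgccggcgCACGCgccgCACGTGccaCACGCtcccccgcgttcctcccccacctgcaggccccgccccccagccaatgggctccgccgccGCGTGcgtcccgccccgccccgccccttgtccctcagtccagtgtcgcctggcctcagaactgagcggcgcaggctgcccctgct
Higd1a: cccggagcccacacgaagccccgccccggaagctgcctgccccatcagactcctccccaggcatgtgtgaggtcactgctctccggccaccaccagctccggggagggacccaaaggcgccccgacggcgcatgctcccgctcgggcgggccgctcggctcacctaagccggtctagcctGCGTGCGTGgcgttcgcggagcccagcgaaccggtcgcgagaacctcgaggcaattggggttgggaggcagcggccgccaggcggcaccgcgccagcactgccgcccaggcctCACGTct
P4ha2: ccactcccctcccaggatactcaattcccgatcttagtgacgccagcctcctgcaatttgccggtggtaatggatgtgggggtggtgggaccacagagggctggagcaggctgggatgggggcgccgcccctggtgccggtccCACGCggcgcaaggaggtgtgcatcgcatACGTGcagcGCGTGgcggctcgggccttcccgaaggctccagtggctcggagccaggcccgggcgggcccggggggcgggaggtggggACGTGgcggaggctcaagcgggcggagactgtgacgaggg
The windows are chr7:138909457-138909756 on the minus strand for Bnip3, chr9:121857747-121858046 on the minus strand for Higd1a and chr11:54100674-54100973 on the plus strand for P4ha2.

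The Bnip3 window held 4 stretches, which start at bases -117, -108, -99 and -35 from the start, the second of them CACGTG. The Higd1a window held 2, at -70, where GCGTGCGTG is a pair of overlapping matches, and at 44. P4ha2 held 4, at -107, -78, -69 and 11. Windows were found for 9 of the 10 genes, all but Ndrg1, and each of the 9 genes had a window with at least 1 stretch. Of their 10 windows (Vegfa has 2 starts), 9 held at least 1 and 8 at least 2, beside 43.8% and 17.3% of 32851 windows of all genes of the same length. Vegfa's window at the 5′ end of the gene, chr17:46032328-46032627, held none, and its 2 stretches lay in the window inside the gene. The windows of Hif1a, Higd1a, P4ha2 and Ankrd37 also lay wholly inside the gene coordinates given here, and not at their 5′ end. These are letter matches, and no binding was measured.

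Bnip3 (chromosome 7, 138890836 to 138909519) was at 179, 157, 172 and 134 CPM in control cultures, a narrow range. MYO5BΔIEC cultures held 103, 132, 176 and 73.6 CPM and MYO5B(G519R) cultures 151, 128, 100.1 and 65.9 CPM. Treated MYO5BΔIEC held 128, 80.3, 24.9 and 64.3 CPM, and all 4 of these lay below the lowest control. Against control the log2 fold change was -0.40 (95% interval -0.91 to 0.12, edgeR adjusted p = 0.237) in MYO5BΔIEC, -0.53 (95% interval -1.03 to -0.02, edgeR adjusted p = 0.112) in MYO5B(G519R) and -1.11 (95% interval -1.94 to -0.28, edgeR adjusted p = 0.0480) in treated enteroids. The last corresponds to 0.463 times the control level (95% interval 0.26 to 0.826). It was -0.82 (edgeR adjusted p = 0.0411, SE 0.24) without treated culture 3, the lowest of the 16 at 24.9 CPM, and -1.03 (edgeR adjusted p = 0.0670, SE 0.41) without control culture 1. The call was lost in 6 of the 8 fits with 1 culture left out (edgeR adjusted p = 0.0670 to 0.118), with the gene length offset (edgeR adjusted p = 0.0766) and with Xist as a covariate (edgeR adjusted p = 0.0714). Between treated and untreated MYO5BΔIEC it was -0.74 (95% interval -1.63 to 0.15), which did not pass. With 1 culture left out that value ran from -1.14 to -0.45.

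Higd1a (chromosome 9, 121848563 to 121858362) stood at 61.4, 121, 112 and 120.2 CPM in controls, where culture 1 was the lowest. MYO5BΔIEC was at 72.8, 73.4, 62.1 and 45.1 CPM, MYO5B(G519R) at 88.4, 83.3, 59.2 and 63.8 CPM and treated MYO5BΔIEC at 47.6, 73.3, 56.5 and 66.8 CPM. Control cultures 2 to 4 exceeded all 12 other cultures. Higd1a fell in MYO5BΔIEC, with a log2 fold change of -0.70 (edgeR adjusted p = 0.0465, SE 0.23), and of -0.89 (edgeR adjusted p = 0.00134, SE 0.16) without control culture 1. In treated enteroids it was -0.76 (edgeR adjusted p = 0.0296, SE 0.23) and -0.92 (edgeR adjusted p = 0.00149, SE 0.15). In MYO5B(G519R) it was -0.49 (edgeR adjusted p = 0.128, SE 0.22) with all cultures and -0.64 (edgeR adjusted p = 0.00363, SE 0.14) without control culture 1. Leaving out any other single culture, Higd1a did not pass in MYO5BΔIEC against control, at an edgeR adjusted p of 0.0673 to 0.121. In treated enteroids the call was lost in 6 of the 8 fits with 1 culture left out, at an edgeR adjusted p of 0.0624 to 0.0837, and with limma on log2(FPKM + 1) and log2(FPKM + 0.1) (limma adjusted p = 0.0558 and 0.0543).

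Some other genes of this kind fell too. Of 8 mitophagy and respirasome assembly genes tested, 3 fell and none rose in each comparison with control when all cultures were used. In the knockout these were Cox7a2l, Fundc1 and Bnip3l. Beside these, 13.8% of all genes fell in MYO5BΔIEC and 13.7% in treated enteroids. In MYO5B(G519R), 26.8% of all genes passed in either direction. Cox7a2l, which helps assemble respiratory supercomplexes, fell, with log2 fold changes of -1.02 (edgeR adjusted p = 0.00401, SE 0.19) in MYO5BΔIEC and -0.91 (edgeR adjusted p = 0.00917, SE 0.20) in MYO5B(G519R). Fundc1, a mitophagy receptor that hypoxia engages, fell as well (log2 fold changes -0.78, SE 0.15, and -0.70, SE 0.13). Bnip3l, the paralog of Bnip3, was 221 ± 9.12 CPM in control, 161 ± 25.7 CPM in MYO5BΔIEC and 159.7 ± 18.4 CPM in MYO5B(G519R) (SD, n = 4), with no overlap. The share of counts from the mitochondrial genome was 6.41% to 10.4% in controls and 3.79% to 6.63% in the other 12 cultures, and its part in these values was not tested.

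P4ha1 and P4ha2 encode the catalytic subunits of collagen prolyl 4-hydroxylase (chromosome 10, 59323296 to 59373304, and chromosome 11, 54100095 to 54131665). P4ha1 was 84.4, 42.5, 52.9 and 43.0 CPM in controls and 59.0, 85.0, 98.9 and 52.0 CPM in MYO5BΔIEC. It was 77.7, 73.4, 61.9 and 43.7 CPM in MYO5B(G519R) and 63.6, 58.2, 29.4 and 50.8 CPM in treated enteroids. Control culture 1 lay within the MYO5BΔIEC range, and of the other 3 controls only culture 3 exceeded a MYO5BΔIEC culture, culture 4. P4ha1's log2 fold change in MYO5BΔIEC was 0.41 (edgeR adjusted p = 0.274, SE 0.26) with all cultures and 0.68 (edgeR adjusted p = 0.0240, SE 0.21) without control culture 1. In MYO5B(G519R) these were 0.20 (edgeR adjusted p = 0.585, SE 0.25) and 0.51 (edgeR adjusted p = 0.0435, SE 0.18). Treatment gave -0.58 (95% interval -1.15 to -0.00, edgeR adjusted p = 0.664), the lowest adjusted p of the members there. With 1 culture left out that value ran from -0.72 to -0.39.

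P4ha2 stood at 36.2, 14.6, 14.1 and 11.8 CPM in controls and 24.8, 36.3, 45.6 and 14.9 CPM in MYO5BΔIEC. MYO5B(G519R) held 37.2, 35.6, 26.7 and 12.9 CPM and treated MYO5BΔIEC 25.3, 18.0, 16.1 and 22.6 CPM. Control cultures 2 to 4 lay below every MYO5BΔIEC and every treated culture, whereas control culture 1 lay among the highest of all. Its log2 fold change was 0.67 (edgeR adjusted p = 0.240, SE 0.40) in MYO5BΔIEC, 0.55 (edgeR adjusted p = 0.346, SE 0.41) in MYO5B(G519R) and 0.10 (edgeR adjusted p = 0.856, SE 0.34) in treated enteroids. Without control culture 1 the values were 1.18 (edgeR adjusted p = 0.0115, SE 0.31), 1.09 (edgeR adjusted p = 0.0146, SE 0.31) and 0.63 (edgeR adjusted p = 0.0251, SE 0.19). P4hb, the shared beta subunit, was far more abundant, at 472 ± 37.4 FPKM in controls (SD, n = 4) against 13.2 ± 4.88 FPKM for P4ha1 and 3.0 ± 1.84 FPKM for P4ha2, levels per length. Of 8 genes of collagen hydroxylation tested, 2 rose in MYO5BΔIEC, the lysyl hydroxylase Plod2 (log2 fold change 2.45, edgeR adjusted p = 0.0098, SE 0.56) and P3h1 (0.86, edgeR adjusted p = 0.0482, SE 0.29), and 1 in MYO5B(G519R), Plod2 (1.97, edgeR adjusted p = 0.0255, SE 0.55). None passed in treated enteroids, beside 27.4%, 26.8% and 29.4% of all genes. Without control culture 1, 5 of the 8 rose in each of the comparisons with control and none fell, beside 42.0%, 46.2% and 42.1% of all genes. With any other single culture left out, the count in MYO5BΔIEC was 1.

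Ndrg1, a stress-responsive gene linked to differentiation, was the most counted member (chromosome 15, 66929318 to 66969640). Its level was 986, 460.3, 484 and 425 CPM in controls and 736, 653, 919 and 555 CPM in MYO5BΔIEC. In MYO5B(G519R) it stood at 685, 637, 601 and 355 CPM, and in treated cultures at 696, 657, 324 and 556 CPM. Control culture 1 was the highest of the 16, while the other 3 controls lay below all MYO5BΔIEC cultures. The log2 fold change in MYO5BΔIEC was 0.29 (edgeR adjusted p = 0.478, SE 0.28) with all cultures and 0.66 (edgeR adjusted p = 0.00976, SE 0.17) without control culture 1, and in MYO5B(G519R) -0.05 (edgeR adjusted p = 0.926, SE 0.30) and 0.35 (edgeR adjusted p = 0.177, SE 0.20). Among the family, Ndrg2 and Ndrg3 had log2 fold changes in MYO5BΔIEC of 0.21 (SE 0.18) and 0.04 (SE 0.12) that did not pass, and Ndrg4 passed at a mean of 0.781 CPM against 0.0487 CPM in controls, under the floor.

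Ankrd37, an ankyrin repeat gene used as a HIF-1 target, was 42.7, 57.1, 63.3 and 52.8 CPM in controls and 49.3, 70.3, 104 and 26.7 CPM in MYO5BΔIEC (chromosome 8, 45996902 to 46005707). MYO5B(G519R) cultures had 60.7, 61.6, 56.4 and 22.6 CPM and treated ones 63.7, 36.0, 24.9 and 48.4 CPM. The 4 MYO5BΔIEC cultures spanned 3.89-fold and enclosed all 4 controls. Its log2 fold changes were 0.22 (95% interval -0.51 to 0.95) in MYO5BΔIEC, -0.10 (95% interval -0.72 to 0.52) in MYO5B(G519R) and -0.57 (95% interval -1.40 to 0.26) on treatment.

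**Figure D2:**
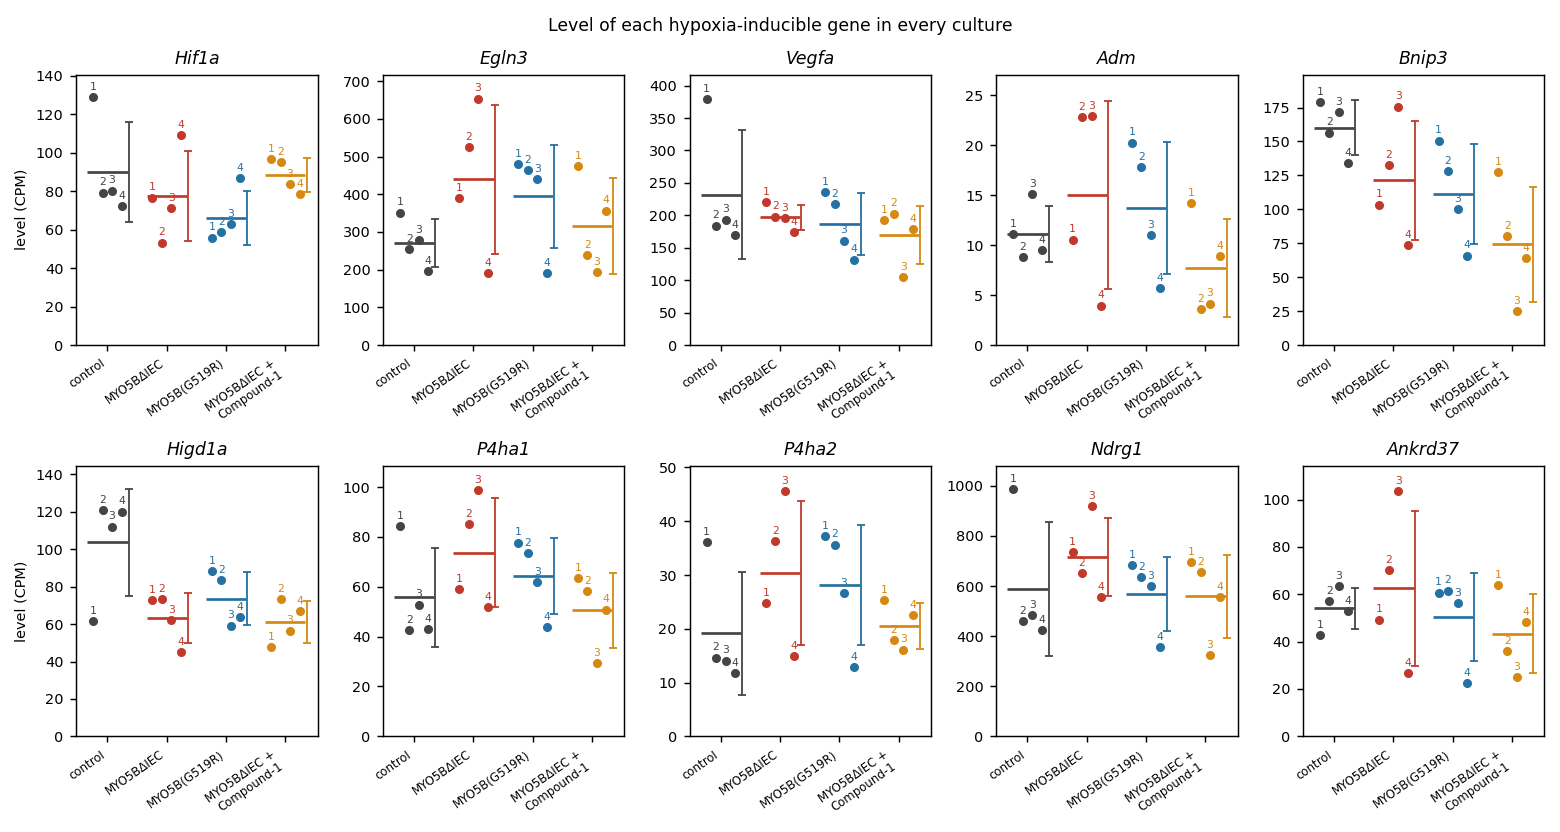
Level in CPM (y axis, from 0) of each gene in all 16 cultures, numbered within their group, with the mean as a horizontal line and SD as the bar to its right (n = 4). Control culture 1 is highest for Hif1a, Vegfa, P4ha2 and Ndrg1 among the controls and lowest for Higd1a, and culture 4 is low for most genes in both mutant groups.

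Levels per length were compared in the deposited FPKM. In controls Egln3 (99.0 ± 24.8 FPKM, SD, n = 4), Ndrg1 (87.2 ± 40.7) and Bnip3 (68.9 ± 9.32) led, followed by Vegfa (52.8 ± 23.4), Ankrd37 (34.1 ± 5.26) and Higd1a (33.1 ± 8.80). Hif1a (14.9 ± 4.54), P4ha1 (13.2 ± 4.88), Adm (6.68 ± 1.72) and P4ha2 (3.0 ± 1.84) were the lowest. Neighbours in this order lay within the sum of their SDs except Higd1a over Hif1a and Adm over P4ha2. In MYO5BΔIEC Egln3 (165 ± 74.5 FPKM) and Ndrg1 (108 ± 23.2) remained at the top and P4ha2 (4.86 ± 2.15) at the bottom.

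Many of the members had their highest or lowest level in the same culture of a group. MYO5BΔIEC culture 4 was the lowest of its group for 9 of the 10 genes and MYO5B(G519R) culture 4 for 8 of the 10, and in both Hif1a was instead the highest of its group. Compound-1-treated culture 3 was lowest for 7 and culture 1 highest for 8. In the controls culture 1 was highest for 7 and culture 4 lowest for 6. Hif1a was highest in culture 1 of the control and of the treated group, as most members were, whereas Higd1a was lowest in culture 1 of both. The genes are of 1 library in each case and share its depth and scaling, so these counts describe cultures and are not replicated tests.

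As a summary of level, log2 CPM was centred on each gene's mean over the 16 cultures and averaged over the 9 genes other than Hif1a. The mean was 0.39, -0.05, 0.11 and -0.18 in control cultures 1 to 4, and 0.11, 0.46, 0.70 and -0.57 in MYO5BΔIEC cultures 1 to 4. It was 0.48, 0.38, 0.06 and -0.67 in MYO5B(G519R) and 0.18, -0.31, -0.96 and -0.14 in treated cultures. Hif1a on the same scale was 0.48 in MYO5BΔIEC culture 4 and -0.56 in culture 2. The span within MYO5BΔIEC, from culture 4 to culture 3, was thus wider than that within controls, and both MYO5BΔIEC and MYO5B(G519R) held cultures above and below every control. Beside these, the enterocyte marker sum was 4108 CPM in MYO5BΔIEC culture 4 and 8818 CPM in culture 3, and 3855 CPM in MYO5B(G519R) culture 4, the lowest of its group. In controls the order was the reverse, as culture 1 had the lowest enterocyte sum of the 16, 2352 CPM, and the highest mean of the controls. The proliferation marker sum was 1360 and 1073 CPM in MYO5BΔIEC cultures 4 and 3, and 722 CPM in treated culture 3, which had the lowest mean of the 16. Both Xist-positive MYO5BΔIEC cultures, 2 and 3, had the higher means of their group, and the Xist-positive MYO5B(G519R) culture, 3, did not. The part of these measures in the members' levels was not tested.

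**Figure D3:**
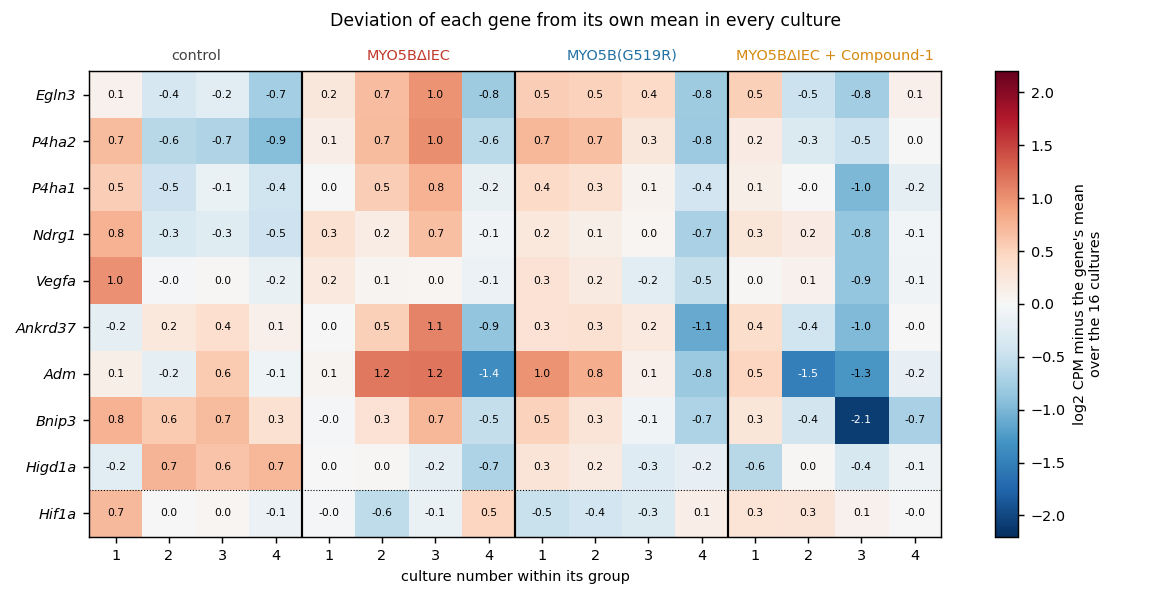
Centred log2 CPM of the 10 genes (rows) in the 16 cultures (columns, numbered within groups), red above and blue below each gene's mean. Culture 4 of MYO5BΔIEC and of MYO5B(G519R) and treated culture 3 are blue for most genes, while Hif1a is red in culture 4 of both mutant groups.

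The spread between cultures of a group was wide for these genes. The pooled SD of log2 CPM within groups (12 degrees of freedom) was above the median of 13545 genes with a mean of at least 1 CPM, 0.28, for all 10 members, and above the upper quartile, 0.42, for 7. Adm had the widest, 0.88, above 96.8% of those genes. P4ha2 (0.64), Ankrd37 (0.63), Bnip3 (0.63) and Egln3 (0.60) lay above 89.4% to 90.9% of them. Hif1a (0.33) and Higd1a (0.35) were nearest the middle, above 60.5% and 64.8%. Without treated culture 3, an alternative chosen after seeing the data, Bnip3's SD was 0.46, and its place fell to above 80.0%.

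**Figure D4:**
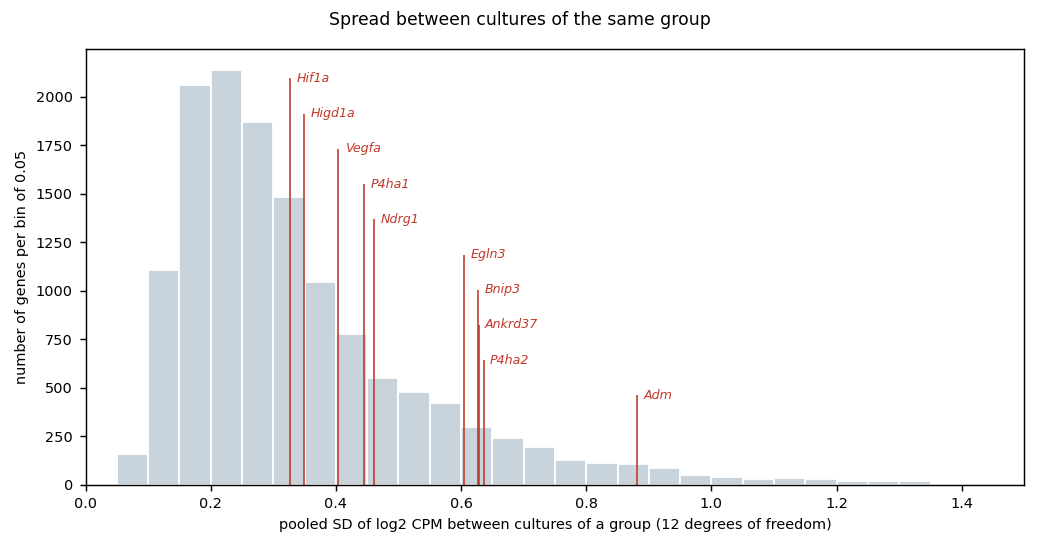
Number of genes (y axis) by pooled within-group SD of log2 CPM (x axis, bins of 0.05), with red lines at the 10 hypoxia-inducible genes. 57 of the 13545 genes lie beyond the right edge of 1.5, and all 10 members lie right of the median, 0.28.

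The genes closest to each member, by the root mean square difference of centred log2 CPM over the 16 cultures, were looked up among 13544 others. For P4ha1 they were Rgs11 (0.12) and Car9 (0.17), the carbonic anhydrase IX gene and a textbook HIF target. For Bnip3 they were Pdk1 (0.27), which restrains pyruvate entry into mitochondria, and Upk3b (0.28). Vegfa and Ndrg1 shared Efna1, at 0.16 and 0.18, with Nek1 (0.19) and Ank (0.19) as their other neighbours. Egln3 was nearest Cyp2s1 (0.15) and Ttll10 (0.20), and Higd1a was nearest Lamtor2 (0.13) and Cox14 (0.14), a factor of cytochrome oxidase assembly. Hif1a was nearest to the translation factor genes Eif4g2 (0.13) and Eif5 (0.14). The remaining neighbours were Grin1 (0.27) and Ppp1r3b (0.33) for Adm, Camk2n1 (0.22) and Tbc1d16 (0.22) for P4ha2, and Dnajb4 (0.23) and Slc30a10 (0.25) for Ankrd37. These values describe likeness in shared libraries only.

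Genes of the machinery that controls HIF moved in both directions. Of 16 listed oxygen-sensing genes, 6 rose and 3 fell in MYO5BΔIEC against control, 7 rose and 3 fell in MYO5B(G519R), and 5 rose and 3 fell in treated enteroids, where 27.4%, 26.8% and 29.4% of all genes passed in either direction. Without control culture 1 the counts were 8 higher and 3 lower, 10 and 3, and 8 and 3, beside 42.0%, 46.2% and 42.1% of all genes. With any 1 culture left out, 6 to 11, 5 to 13 and 4 to 11 of the 16 passed, and the number over all genes moved in these fits as well. Epas1, which encodes HIF-2α, was 15.8 ± 2.39 CPM in control and 39.0 ± 12.4 CPM in MYO5BΔIEC (SD, n = 4), log2 fold change 1.31 (edgeR adjusted p = 0.00445, SE 0.25), and it rose by 1.18 (edgeR adjusted p = 0.00338, SE 0.19) in MYO5B(G519R). Hif3a, a further alpha subunit, rose by 1.74 (SE 0.46) and 1.54 (SE 0.36). The partners Arnt (0.44 and 0.40) and Arnt2 (1.79 and 1.41) and the coactivators Ep300 (0.93 and 0.74) and Crebbp (0.77 and 0.71) rose in both. Elob (-0.87 and -0.73), Eloc (-0.87 and -0.70) and Rbx1 (-0.53 and -0.49), subunits of the VHL ubiquitin ligase, fell in both. Vhl itself was 25.5 ± 2.66 CPM in control and 23.9 ± 2.85 CPM in MYO5BΔIEC, and Egln1, the main oxygen sensor, 78.2 ± 39.8 and 119.5 ± 21.4 CPM, and neither passed.

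The counts of other HIF targets depended on control culture 1. Of 13 glycolytic targets, 1 rose in MYO5BΔIEC, Hk2 (log2 fold change 1.07, edgeR adjusted p = 0.0208, SE 0.29), the first enzyme of glycolysis, and 3 in MYO5B(G519R), Hk2 (1.11, SE 0.30), Slc16a3 (0.59, SE 0.17), a lactate exporter, and Pfkl (0.54, SE 0.14). None fell in either, beside 27.4% and 26.8% of all genes that passed in either direction. Without control culture 1, 6 were higher and 3 lower in MYO5BΔIEC, and 6 higher and 2 lower in MYO5B(G519R), beside 42.0% and 46.2%. With any 1 culture left out, 0 to 9 and 0 to 8 of the 13 passed, and the number over all genes moved as well. In MYO5BΔIEC against control it was 2963 of 17608 without MYO5BΔIEC culture 2. DESeq2 called 7 and 5 of the 13 with all cultures, beside 33.3% and 34.6% of all genes. Of 23 further targets tested, 4 rose and 2 fell in MYO5BΔIEC, and 2 rose and 3 fell in MYO5B(G519R), beside the 27.4% and 26.8% of all genes. Plod1, Plod2 and Bnip3l are among the 23 and were also counted above, with collagen hydroxylation or mitophagy genes. In MYO5BΔIEC, Plod2 is among those that rose and Bnip3l among those that fell. Without control culture 1 these became 11 higher and 3 lower in MYO5BΔIEC and 10 higher and 3 lower in MYO5B(G519R), with 17 of the 23 above 0 in both, beside 42.0% and 46.2% of all genes. With any 1 culture left out the totals ran from 1 to 14 and from 0 to 13, while the number over all genes moved as well. With all cultures the endothelin gene Edn1 (0.93, SE 0.31) and Mxi1 (0.68, SE 0.21), an antagonist of MYC, rose in MYO5BΔIEC, and Fam162a (-0.58, SE 0.17) fell in MYO5B(G519R). Between treated and untreated MYO5BΔIEC, where edgeR called no gene at all, DESeq2 called 1 gene of these lists, Plod2 (edgeR log2 fold change -1.76, DESeq2 adjusted p = 0.0315).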

How the data were processed

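Per the labels, mRNA was purified on poly-T beads. Per the study's methods and the submitters' processing notes, the authors aligned read pairs to GRCm38 (mm10) with STAR 2.5, parsed alignments with TopHat and counted reads per gene with HTSeq 0.6.1. The deposited count table holds whole reads per gene with no normalization, and the deposited FPKM table was made by the authors from those reads, scaled to each gene's length and each library's size. Strand use and the treatment of reads with several positions were not given in the sources used here. The authors tested counts with DESeq2.

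Groups were taken from the sample labels, with 4 cultures each, and 0 columns were left unmapped. Counts were tested 2 groups at a time in R 4.3.3 with edgeR 4.0.16 (TMM, quasi-likelihood F test, a minimum of 10 counts in 2 or more of the 8 cultures, Benjamini-Hochberg adjustment over all genes tested, threshold 0.05). SE is the log2 fold change over the square root of F, intervals use its t distribution, and adjusted p values are edgeR's unless named otherwise. Levels are CPM with TMM over all 16 cultures, and centred values are log2 CPM with a prior count of 1. Fits were tested on simulated data. Cultures of a group came from different mice, so p values measure the spread between mice and cultures.

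Text names all 10 members, listed oxygen-sensing genes, up to 3 genes a list with the largest change, and the 2 nearest genes of each member by root mean square difference, and some values of single genes are not reported here. Members and lists were chosen with earlier results of these data known, so their counts are read against all genes. A letter match in a promoter window says nothing of binding.

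Alternatives were DESeq2 1.42.0, its size factors, filterByExpr, no filter, robust empirical Bayes, a block for replicate number, all 4 groups in one fit, limma 3.58.1 on log2(FPKM + 1) and log2(FPKM + 0.1), mitochondrial genes left out of library sizes, an offset for gene length, and each culture left out. Xist level as a covariate, and the SD without treated culture 3, were added after seeing the data. Leaving out each culture was planned, but control culture 1 and treated culture 3 were singled out after seeing the data. Fold changes from limma are on the log2(FPKM + pseudocount) scale. The replicate numbers did not pair cultures throughout: of 24 same-number pairs, 8 correlated over 0.1. The highest were cultures 4 and 3 of MYO5B(G519R) with those of MYO5BΔIEC (r = 0.566 and 0.497).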

Additional observations from a re-analysis of the deposited data

Results flagged for a closer look

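In each group of 4 cultures, each member's highest and lowest culture was set against Dixon's critical value for 4 samples. Of 40 such groups 7 exceeded it, and chance alone flags about 1 in 20 groups. Of these, 5 were control culture 1, which was far above the other controls for Hif1a (129 CPM), Vegfa (379.7 CPM), P4ha2 (36.2 CPM) and Ndrg1 (986 CPM) and far below them for Higd1a (61.4 CPM). The same culture had the low enterocyte marker sum and a mitochondrial share of counts of 6.41%, against 9.07% to 10.4% in the other controls. The other 2 were MYO5B(G519R) culture 4, which was far below its group for Egln3 (191 CPM) and Ankrd37 (22.6 CPM).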

How the results depend on the processing

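No member was called in treated against untreated MYO5BΔIEC or in MYO5B(G519R) against MYO5BΔIEC under any alternative. The 1 member called in MYO5BΔIEC against control was lost (0 called) with the replicate block, limma on either pseudocount, the gene length offset and the Xist covariate, and leaving out 1 culture gave 0 to 4. For MYO5B(G519R) against control the count was 0, but 1 with the replicate block (Bnip3, log2 fold change -0.58, edgeR adjusted p = 0.0453) and 1 with the gene length offset (Hif1a, -0.54, edgeR adjusted p = 0.0483), and 0 to 3 when 1 culture was left out. For treated MYO5BΔIEC against control, 2 members became 1 with limma on either pseudocount, the gene length offset and the Xist covariate. Leaving out 1 culture gave 0 to 2, with 0 without control culture 2, 3 or 4 or treated culture 4. Calls over all genes shifted as well. In MYO5BΔIEC against control 7474 of 17783 genes passed without control culture 1, and 2963 of 17608 without MYO5BΔIEC culture 2. In MYO5B(G519R) against control 8146 of 17647 passed without control culture 1. In treated MYO5BΔIEC against control 2957 of 17688 passed without control culture 3. A member gained or lost is therefore not a result about the members alone.

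Same-numbered cultures were not matched throughout (r = -0.231 to 0.566, and 7 of 24 best with their own number). Between MYO5B(G519R) and MYO5BΔIEC, cultures 1, 3 and 4 were best with their own number (r = 0.143, 0.497 and 0.566). Between MYO5B(G519R) and treated MYO5BΔIEC, cultures 1 and 3 were (r = 0.255 and 0.42). What such cultures shared was not tested. The replicate block was an alternative alone, with 0, 1, 0, 2 and 0 members called in the 5 comparisons. Over all genes it called 3647 of 17951 in MYO5BΔIEC against control and 3691 of 17829 in MYO5B(G519R) against control. Small fold changes turned sign. Ndrg1 in MYO5B(G519R) against control was 0.029 and 0.03 with limma on log2(FPKM + 1) and log2(FPKM + 0.1) and 0.10 with the Xist covariate, and Ankrd37 there was 0.20 with the gene length offset. In treated MYO5BΔIEC against control, Hif1a was 0.008 with the replicate block, 0.021 and 0.024 with limma on these pseudocounts and 0.033 with the Xist covariate, P4ha2 was -0.017 and Ankrd37 0.021 with the gene length offset, and Ndrg1 was 0.063 with the Xist covariate. In MYO5B(G519R) against MYO5BΔIEC, Adm was 0.013 with limma on log2(FPKM + 0.1), and with the Xist covariate Egln3 was 0.11, Adm 0.32, Bnip3 0.037, P4ha2 0.13 and Ankrd37 0.012. None of these had passed, and the cause was not tested.

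With 1 culture left out, 31 member fold changes changed sign, and the ranges follow for those members on the log2 scale. In MYO5BΔIEC against control these were Hif1a -0.42 to 0.01, Vegfa -0.35 to 0.12 and Ankrd37 -0.14 to 0.47. For MYO5B(G519R) against control they were Vegfa -0.44 to 0.066, Ndrg1 -0.18 to 0.35 and Ankrd37 -0.21 to 0.14. Treated against untreated MYO5BΔIEC gave Higd1a -0.22 to 0.011. Treated MYO5BΔIEC against control gave Hif1a -0.12 to 0.22, Egln3 -0.045 to 0.40, P4ha1 -0.28 to 0.15, P4ha2 -0.08 to 0.62 and Ndrg1 -0.21 to 0.32. MYO5B(G519R) against MYO5BΔIEC gave Egln3 -0.40 to 0.10, Vegfa -0.21 to 0.057, Adm -0.45 to 0.16, Bnip3 -0.30 to 0.12, P4ha2 -0.34 to 0.15 and Ankrd37 -0.56 to 0.048. Of the other member fold changes, 9 came to pass and 19 no longer passed.

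With 4 cultures a group and this spread, the intervals of most members span log2 changes of both signs, so a missing call does not show equal levels.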
